A study of Mus musculus with 38 samples.

Results

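In tail skin of mice, 10 genes of the dermal matrix and its signalling were followed, out of the 19219 genes measured in 38 libraries. Acan, Cemip, Sned1, Ltbp2 and Ccn3 encode matrix or matrix-associated proteins, and Susd5 encodes a membrane protein. Gdf10 and Mstn encode secreted ligands of the TGF-beta superfamily, and Osr1 and Sp9 encode transcription factors. The genes were chosen by name, and the names were chosen on measured values. Ltbp2, Gdf10, Mstn, Cemip, Acan, Susd5 and Osr1 were among the largest rises in vitiligo_ABX against vitiligo. Sp9 and Ccn3 were among the largest rises in no_induction_ABX against no_induction. The measured value behind the choice of Sned1 is not recorded, so its values in both of these comparisons are given as a description. For the other 9, each comparison that chose a gene describes it, and the other comparison tests it. The question was whether the genes follow the treatment of the mice or the level of Hoxb13, a gene of posterior body position that stands in here for the site of sampling.

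The series examined a mouse model of vitiligo, in which skin loses pigment cells, depletion of gut microbes with ABX, and hippuric acid, a metabolite that depends on gut microbes. The group vitiligo_ABX (6 libraries) had vitiligo induction and ABX, and vitiligo (9 libraries) had the induction alone. The group no_induction_ABX (6 libraries) was wild type mice given ABX, and no_induction (9 libraries) was wild type mice with no treatment named. The group hippuric_acid (5 libraries) was wild type mice injected intraperitoneally with hippuric acid, and vehicle (3 libraries) was wild type mice injected with its vehicle. The labels give no strain, age, sex, method of induction, dose or composition of ABX, and no genotype for the induced mice. They do not say whether each library is a different mouse. The p-values therefore reflect spread among libraries, which may be technical.

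Dermal fibroblasts make a matrix in which hyaluronan, proteoglycans and fibrillin microfibrils hold water, give elasticity and store growth factors of the TGF-beta superfamily in latent form. Fibroblasts keep a memory of body position in the expression of Hox genes. Hoxb13 belongs to the most posterior of these genes and marks tail and genital skin.

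Library totals ran from about 15341800 to about 27920800 counts, and levels are given as CPM, a count scaled to the library total with TMM factors. All 38 libraries carried skin transcripts, with Krt5 (a keratin of basal keratinocytes) at 1850 to 4651 CPM, Krt10 (a keratin of suprabasal keratinocytes) at 3646 CPM or more, and Col1a1 (a chain of type I collagen) at 819 to 4661 CPM. Libraries 011 and 012 of no_induction and 001 of vehicle carried Y-linked and intestinal transcripts, and libraries 000 and 260 of vitiligo carried intestinal transcripts. Counts of called genes without these libraries are given beside each comparison. In bulk tissue, fewer cells of a type and less RNA per cell cannot be told apart.

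Promoter sequence is shown for 3 of the genes because the question turns on a Hox gene and their windows differ in how many letter matches to a Hox motif they hold. RefSeq promoters of build GRCm38.p6 were matched by symbol for 8 of the 10 genes, and the 250 bases before the start site were searched on both strands for TTTAT, a core that HOX13 proteins are known to bind. The windows lie at chr14:33923337-33923586 (plus strand), chr12:84876492-84876741 (minus strand) and chr1:53061390-53061639 (plus strand). Each is written 5′ to 3′ with matches in capitals, where ATAAA is the match read from the other strand.
Gdf10: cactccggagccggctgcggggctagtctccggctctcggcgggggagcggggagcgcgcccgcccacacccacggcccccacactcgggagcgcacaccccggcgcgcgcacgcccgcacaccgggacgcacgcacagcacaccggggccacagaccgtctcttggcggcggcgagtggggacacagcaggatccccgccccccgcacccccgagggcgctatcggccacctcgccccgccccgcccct
Ltbp2: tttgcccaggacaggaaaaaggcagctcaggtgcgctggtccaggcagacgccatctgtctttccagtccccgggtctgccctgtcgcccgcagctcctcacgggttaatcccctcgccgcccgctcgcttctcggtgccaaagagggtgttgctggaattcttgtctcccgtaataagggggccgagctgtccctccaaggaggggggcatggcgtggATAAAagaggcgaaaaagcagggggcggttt
Mstn: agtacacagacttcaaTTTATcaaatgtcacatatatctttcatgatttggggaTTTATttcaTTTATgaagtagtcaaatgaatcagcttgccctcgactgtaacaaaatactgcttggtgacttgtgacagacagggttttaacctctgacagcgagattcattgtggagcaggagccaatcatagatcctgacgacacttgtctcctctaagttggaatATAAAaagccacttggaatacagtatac

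The Gdf10 window held 0 matches, the Ltbp2 window 1 and the Mstn window 4. One of the 4 in Mstn overlaps the letters TATAAA, as does the 1 match in Cemip. The windows of Acan, Susd5, Sned1 and Sp9 held 0. The outermost GENCODE start of Ltbp2 lies at -41 from the RefSeq start, so its 1 match lies after that start. Of 32851 promoter windows of the same length, 37.3% held TTTAT on either strand, and 3 of the 8 windows of these genes did. A match is a run of letters and not a binding site.

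Hoxb13 stood higher in every library given ABX or hippuric acid than in any other. It had 13.8, 15.8, 19.1, 27.5, 28.5 and 33.9 CPM in vitiligo_ABX, against a lowest of 0.324, a median of 3.72 and a highest of 9.63 CPM in vitiligo. It had 24.8, 25.2, 26.2, 28.3, 29.4 and 30.3 CPM in no_induction_ABX, against a lowest of 2.06, a median of 9.25 and a highest of 12.3 CPM in no_induction. It had 26.3, 27.7, 32.4, 32.9 and 37.7 CPM in hippuric_acid, against 4.29, 5.54 and 9.30 CPM in vehicle. The 17 libraries given ABX or hippuric acid thus lay at 13.8 to 37.7 CPM and the other 21 at 0.324 to 12.3 CPM, with no overlap. The TMM factors split the same libraries, at 1.014 to 1.115 in the 17 and at 0.879 to 1.007 in the other 21. Between groups, the Hoxb13 level, the TMM factor and the treatment cannot be told apart. The source of the split in TMM factors was not tested.

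Hoxa13, which also belongs to the most posterior group and was named after its values were seen, overlapped between the groups of each comparison. It had medians of 5.49 CPM in vitiligo_ABX and 8.35 CPM in vitiligo, 7.69 CPM in no_induction_ABX and 5.31 CPM in no_induction, and 6.07 CPM in hippuric_acid and 6.49 CPM in vehicle. Of 14 posterior Hox genes tested besides Hoxb13, 2 rose and 0 fell in vitiligo_ABX against vitiligo, 1 rose and 4 fell in no_induction_ABX against no_induction, and 1 rose and 2 fell in hippuric_acid against vehicle (edgeR quasi-likelihood test, adjusted p under 0.05). Of all genes tested, 5.06%, 15.4% and 5.48% rose in these comparisons, and 1128 of 14014, 2201 of 13971 and 1168 of 14097 fell. Hoxd13 rose in vitiligo_ABX (log2 fold change 1.98 ± 0.55 SE, edgeR adjusted p = 0.0243), at a median of 0.950 CPM against 0.103 CPM in vitiligo. Hoxc13, which is also expressed in hair follicles, fell in no_induction_ABX (log2 fold change -1.02 ± 0.18, edgeR adjusted p = 5.24e-04).

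For 9 of the 10 genes, the 3 groups with the highest mean were vitiligo_ABX, no_induction_ABX and hippuric_acid. Cemip was the exception. The choice of genes fixed part of this order for the ABX groups, so it is a description. For Acan the lowest library of no_induction_ABX, in the third place of the order, lay above the highest of vehicle, in the next place. At every other step of the order, in all 10 genes, neighbouring groups overlapped. Mean levels per kb of exon in no_induction ran from 0.0517 CPM per kb for Sp9 to 14.6 CPM per kb for Ccn3, with Gdf10 at 5.42, Sned1 at 3.72, Osr1 at 3.58, Ltbp2 at 0.782, Acan at 0.758, Cemip at 0.470, Mstn at 0.411 and Susd5 at 0.279 CPM per kb.

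**Figure D1:**
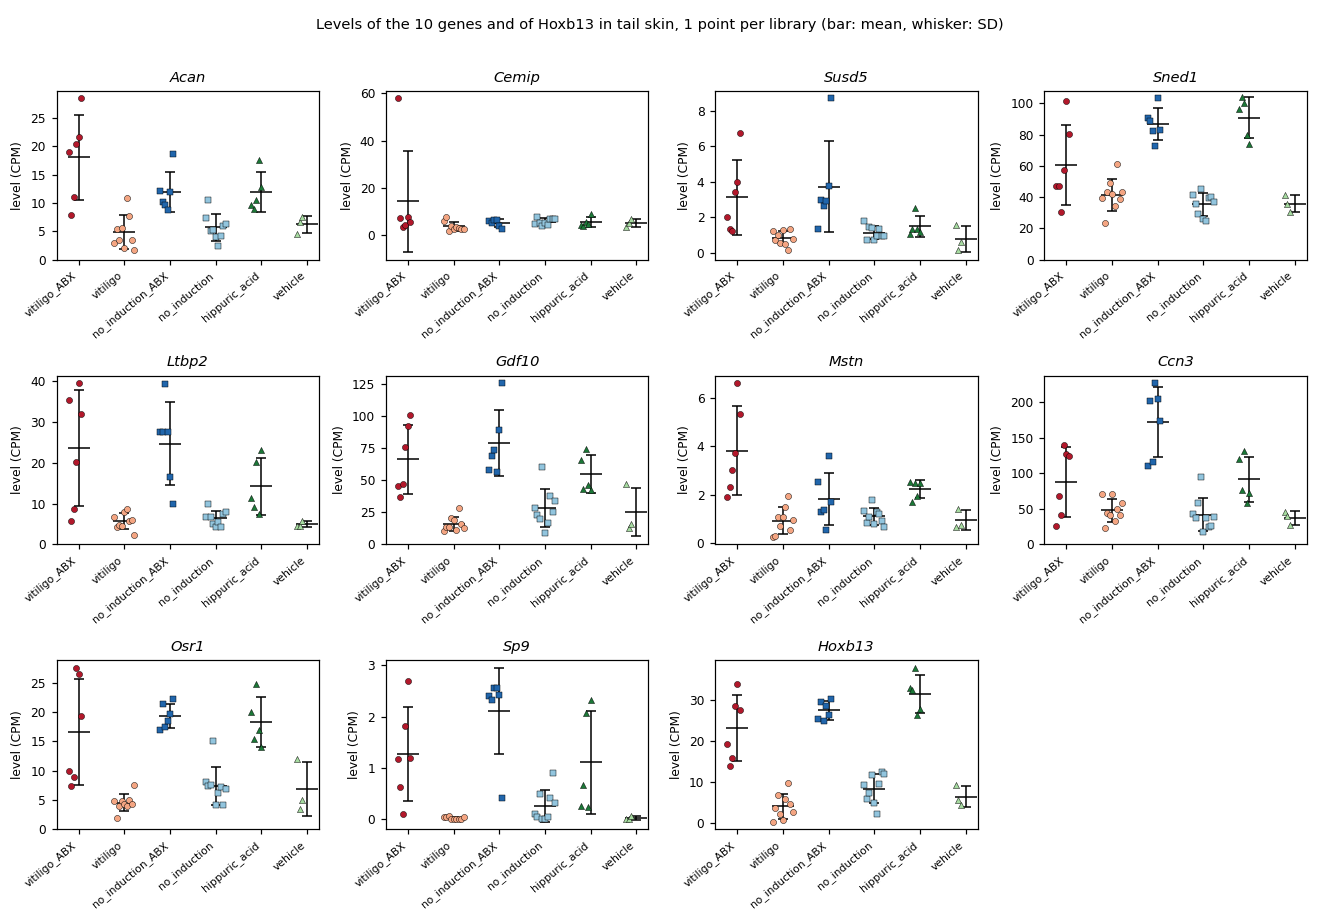
Level of each of the 10 genes and of Hoxb13 (CPM, linear axis) by group, with 1 point per library, the mean as a bar and the SD as a whisker. Hoxb13 lies at 13.8 CPM or more in all 17 libraries given ABX or hippuric acid and at 12.3 CPM or less in the other 21, and 1 library of vitiligo_ABX sets the Cemip mean.

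Without induction, ABX went with higher levels of Ltbp2, Susd5, Gdf10, Osr1 and Acan. In no_induction_ABX against no_induction, 5 of the 7 genes tested rose, 0 fell and 2 were not called (edgeR quasi-likelihood test, Benjamini-Hochberg adjusted p under 0.05). Of all genes tested in this comparison, 15.4% rose. The same 7 genes had been chosen in the induced mice, and the comparisons share no library. The median log2 fold change was 1.40 over the 7 genes tested and -0.00 over all 13971 genes tested.

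Ltbp2, a protein of fibrillin microfibrils that unlike its relatives does not bind latent TGF-beta, had 10.0004, 16.4, 27.5, 27.5, 27.5 and 39.5 CPM in no_induction_ABX, against a lowest of 4.23, a median of 6.62 and a highest of 9.85 CPM in no_induction. The groups did not overlap. Its log2 fold change was 1.96 ± 0.24 (SE, edgeR adjusted p = 4.26e-05).

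Gdf10, also called bone morphogenetic protein 3b, had 56.6, 58.4, 69.2, 74.0, 89.3 and 126 CPM in no_induction_ABX, against a lowest of 9.23, a median of 25.4 and a highest of 60.5 CPM in no_induction. Of the 6 libraries given ABX, 4 lay above every library of no_induction. The log2 fold change was 1.496 ± 0.31 (edgeR adjusted p = 0.00217).

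Osr1, an odd-skipped factor of embryonic mesenchyme, had 17.0, 17.4, 18.4, 19.7, 21.3 and 22.1 CPM in no_induction_ABX, against a lowest of 4.06, a median of 7.19 and a highest of 14.99 CPM in no_induction. All 6 libraries lay above the 9 of no_induction, and the log2 fold change was 1.40 ± 0.21 (edgeR adjusted p = 1.59e-04).

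Acan encodes aggrecan, the large proteoglycan of cartilage that binds hyaluronan. It had 8.82, 9.70, 10.1, 11.9, 12.2 and 18.7 CPM in no_induction_ABX, against a lowest of 2.45, a median of 5.21 and a highest of 10.5 CPM in no_induction. The groups overlapped, with 3 of 6 libraries above every library of no_induction, and the log2 fold change was 1.08 ± 0.24 (edgeR adjusted p = 0.00293). Susd5, a membrane protein with a sushi domain, lay at 1.36 to 8.70 CPM in no_induction_ABX and 0.698 to 1.77 CPM in no_induction (log2 fold change 1.72 ± 0.32, edgeR adjusted p = 8.67e-04).

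The remaining 2 genes tested were not called. Mstn, the ligand myostatin that limits growth of skeletal muscle, lay at 0.574 to 3.59 CPM in no_induction_ABX and 0.697 to 1.78 CPM in no_induction (log2 fold change 0.74 ± 0.31, edgeR adjusted p = 0.0769). Cemip, a protein needed for breakdown of hyaluronan, lay at 2.54 to 6.54 CPM in no_induction_ABX and 3.97 to 7.62 CPM in no_induction (log2 fold change -0.16 ± 0.20, edgeR adjusted p = 0.584).

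Sp9, Ccn3 and Sned1 are described here without a test. Sp9, a zinc finger factor of the limb bud and of developing neurons, had a sum of 247 counts over the 6 libraries of no_induction_ABX and 42 over the 9 of no_induction, a ratio of rates of 8.50 (95% exact interval 6.11 to 12.1, counting error only). It was at 2.32 to 2.56 CPM in 5 libraries of no_induction_ABX and at 0.415 CPM in library 006, against 0 to 0.908 CPM in no_induction. Ccn3, a matricellular protein of the CCN family, had 111, 115, 174, 201, 205 and 227 CPM in no_induction_ABX, against a lowest of 17.2, a median of 37.4 and a highest of 94.96 CPM in no_induction. Sned1, a large glycoprotein of the matrix, had 72.9, 82.6, 82.7, 88.8, 90.3 and 103 CPM in no_induction_ABX, against a lowest of 24.5, a median of 36.8 and a highest of 45.0 CPM in no_induction. Neither Ccn3 nor Sned1 overlapped between the groups. Of the 7 genes tested, Ltbp2 and Osr1 had every library of no_induction_ABX above every library of no_induction, as did 2.69% of all genes tested.

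The count was also 5 without the 2 libraries of no_induction with Y-linked and intestinal transcripts, and it was 5 or 6 without any 1 library. It was 0 with the Hoxb13 level in the fit, where Ltbp2 had a log2 fold change of 1.91 ± 0.51 (edgeR adjusted p = 0.0735) and Gdf10 one of 0.25 ± 0.46 (edgeR adjusted p = 0.814). Over all genes tested, the fit with the Hoxb13 level called 183, against 2150 higher and 2201 lower without it. Hoxb13 does not overlap between the groups in any of the 3 comparisons, so these fits set apart 2 measures that move together.

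In mice with vitiligo induction, the 7 genes that this comparison chose are given as levels with no test. Gdf10 had 36.6, 45.4, 47.3, 75.9, 92.6 and 101 CPM in vitiligo_ABX, against a lowest of 10.6, a median of 13.6 and a highest of 28.02 CPM in vitiligo, with no overlap. Ltbp2 had 5.74, 8.59, 20.3, 31.9, 35.4 and 39.6 CPM in vitiligo_ABX, against a lowest of 2.42, a median of 5.63 and a highest of 8.80 CPM in vitiligo. Its libraries 002 and 003 lay inside the range of vitiligo and the other 4 above it.

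Osr1 had 7.38, 8.89, 10.01, 19.2, 26.5 and 27.5 CPM in vitiligo_ABX, against a lowest of 1.96, a median of 4.36 and a highest of 7.48 CPM in vitiligo. Acan had 7.84, 11.01, 18.9, 20.4, 21.6 and 28.4 CPM in vitiligo_ABX, against a lowest of 1.65, a median of 3.53 and a highest of 10.8 CPM in vitiligo. In both genes 5 of 6 libraries lay above every library of vitiligo. Mstn lay at 1.90 to 6.59 CPM in vitiligo_ABX and 0.278 to 1.97 CPM in vitiligo, and Susd5 at 1.21 to 6.77 CPM in vitiligo_ABX and 0.174 to 1.33 CPM in vitiligo.

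Cemip rested on 1 library. It had 57.8 CPM in vitiligo_ABX 001 and 3.48, 4.27, 5.58, 7.27 and 7.59 CPM in the other 5, against 1.76 to 7.70 CPM in vitiligo. Its log2 fold change was 1.93 ± 0.54 with that library and 0.59 ± 0.31 without it. The log2 fold changes of the other 6 genes chosen here ran from 1.88 for Osr1 to 2.07 for Ltbp2. Sned1, with no test, lay at 30.7 to 101 CPM in vitiligo_ABX and 23.1 to 61.0 CPM in vitiligo (log2 fold change 0.55 ± 0.22).

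Ccn3 and Sp9, chosen without induction, were to be tested here. Of all genes tested, 5.06% rose, and 0 of the 2 genes were called, as without the 2 vitiligo libraries with intestinal transcripts. Ccn3 had 26.1, 40.9, 68.3, 125, 127 and 139 CPM in vitiligo_ABX, against a lowest of 22.8, a median of 44.8 and a highest of 71.2 CPM in vitiligo. Libraries 001 to 003 of vitiligo_ABX lay inside the range of vitiligo and the other 3 above it. The log2 fold change was 0.87 ± 0.32, with an unadjusted p of 0.0136 and an edgeR adjusted p of 0.0784, so 1 gene passed at an unadjusted p under 0.05. DESeq2 called Ccn3 (adjusted p = 0.0407), as did limma-voom (adjusted p = 0.0133). Ccn3 was called without vitiligo_ABX 001 (log2 fold change 1.06, edgeR adjusted p = 0.0210) or without 003 (1.01, edgeR adjusted p = 0.0391). Without libraries 001 to 003 together its log2 fold change was 1.43 ± 0.24 (edgeR adjusted p = 0.00250). These are the 3 libraries of the group lowest in Ccn3. Leaving out low libraries raises the value by construction, so nothing is read from those calls. Without library 004 the log2 fold change was 0.67 (edgeR adjusted p = 0.210).

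Sp9 did not pass the count filter in this comparison. It had a sum of 152 counts over the 6 libraries of vitiligo_ABX and 4 over the 9 of vitiligo, a ratio of rates of 54.2 (95% exact interval 20.7 to 202, counting error only). Its levels were 0.101, 0.6248, 1.18, 1.19, 1.81 and 2.70 CPM in vitiligo_ABX, against 0 in 5 libraries and up to 0.0630 CPM in the other 4 of vitiligo. The groups did not overlap. With no count filter its edgeR adjusted p was 6.00e-05, which makes 1 of 2 genes called. With the Hoxb13 level in the fit, the log2 fold changes in this comparison were 1.72 ± 0.73 for Ltbp2, 1.31 ± 0.44 for Gdf10, 0.35 ± 0.56 for Acan and 0.03 ± 0.40 for Sned1, as a description. Every library of vitiligo_ABX lay above every library of vitiligo for 2 of the 10 genes, Gdf10 and Sp9, and for 0.664% of all genes tested. Gdf10 was chosen on this comparison, so nothing is read from its part of that count.

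Hippuric acid shares no library with the comparisons that chose the 9 genes. In hippuric_acid against vehicle, 7 of the 10 genes rose, 0 fell and 3 were not called (edgeR, adjusted p under 0.05), and 5.48% of all genes tested rose. Without Sned1, for which the choice is not recorded, the count was 6 of 9. Sp9, with 1 count in vehicle, passed the count filter only through hippuric_acid. Without Sp9 the count was 6 of 9, and without both it was 5 of 8. The median log2 fold change was 1.26 over the 10 genes and 0.02 over all 14097 genes tested, and all 10 values were positive. The same 7 genes had every library of hippuric_acid above every library of vehicle, as did 8.84% of all genes tested.

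Sned1 had 73.9, 79.9, 96.6, 100.03 and 104 CPM in hippuric_acid, against 30.8, 35.3 and 41.4 CPM in vehicle (log2 fold change 1.34 ± 0.15, edgeR adjusted p = 6.81e-04). Ccn3 had 58.5, 71.8, 75.99, 119.5 and 132 CPM in hippuric_acid, against 26.7, 40.2 and 46.1 CPM in vehicle (log2 fold change 1.28 ± 0.30, edgeR adjusted p = 0.0227). Ltbp2 had 7.41, 9.16, 11.3, 20.2 and 23.1 CPM in hippuric_acid, against 4.39, 4.60 and 5.86 CPM in vehicle (log2 fold change 1.52 ± 0.38, edgeR adjusted p = 0.0284). In these 3 matrix genes every library given hippuric acid lay above every vehicle library.

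Mstn had 1.70, 1.97, 2.47, 2.49 and 2.55 CPM in hippuric_acid, against 0.685, 0.757 and 1.42 CPM in vehicle (log2 fold change 1.24 ± 0.33, edgeR adjusted p = 0.0301). Osr1 had 14.004, 15.4, 16.9, 19.9 and 24.8 CPM in hippuric_acid, against 3.52, 4.98 and 12.04 CPM in vehicle (log2 fold change 1.39 ± 0.36, edgeR adjusted p = 0.0317). Acan had 8.97, 9.64, 10.6, 12.8 and 17.6 CPM in hippuric_acid, against 4.50, 6.56 and 7.57 CPM in vehicle (log2 fold change 0.95 ± 0.25, edgeR adjusted p = 0.0329). Vehicle 001 was the highest vehicle library for Osr1 and the lowest for Acan.

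Sp9 had 0.229, 0.255, 0.661, 2.06 and 2.33 CPM in hippuric_acid, against 0, 0 and 0.0631 CPM in vehicle (edgeR adjusted p = 0.0303). This was a sum of 111 counts in hippuric_acid and 1 count in vehicle, a ratio of rates of 55.5 (95% exact interval 9.76 to 2211, counting error only). The 3 genes not called were Gdf10, at 42.5 to 74.7 CPM in hippuric_acid and 12.9 to 46.9 CPM in vehicle (log2 fold change 1.10 ± 0.42, edgeR adjusted p = 0.118), Susd5 (0.86 ± 0.56, edgeR adjusted p = 0.330) and Cemip (0.09 ± 0.30, edgeR adjusted p = 0.877).

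With 3 vehicle libraries these calls depended on single libraries. The count was 5 without vehicle 001, the library with Y-linked and intestinal transcripts, and it was 2 without vehicle 002, vehicle 003 or hippuric_acid 3. It was 4 without hippuric_acid 4 or 5, 3 with limma-voom, and 1 with the Hoxb13 level in the fit, where Acan was called (3.12 ± 0.69, edgeR adjusted p = 0.0376). How many of all genes the fit with the Hoxb13 level called is not given here. Without vehicle 001, Gdf10 (log2 fold change 1.95, edgeR adjusted p = 0.00220) and Susd5 (1.93, edgeR adjusted p = 0.0452) were called, while Acan, Ltbp2, Mstn and Sp9 were not. Sp9 was not called without any 1 vehicle library, and it did not pass the count filter without hippuric_acid 2, 3 or 5.

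**Figure D2:**
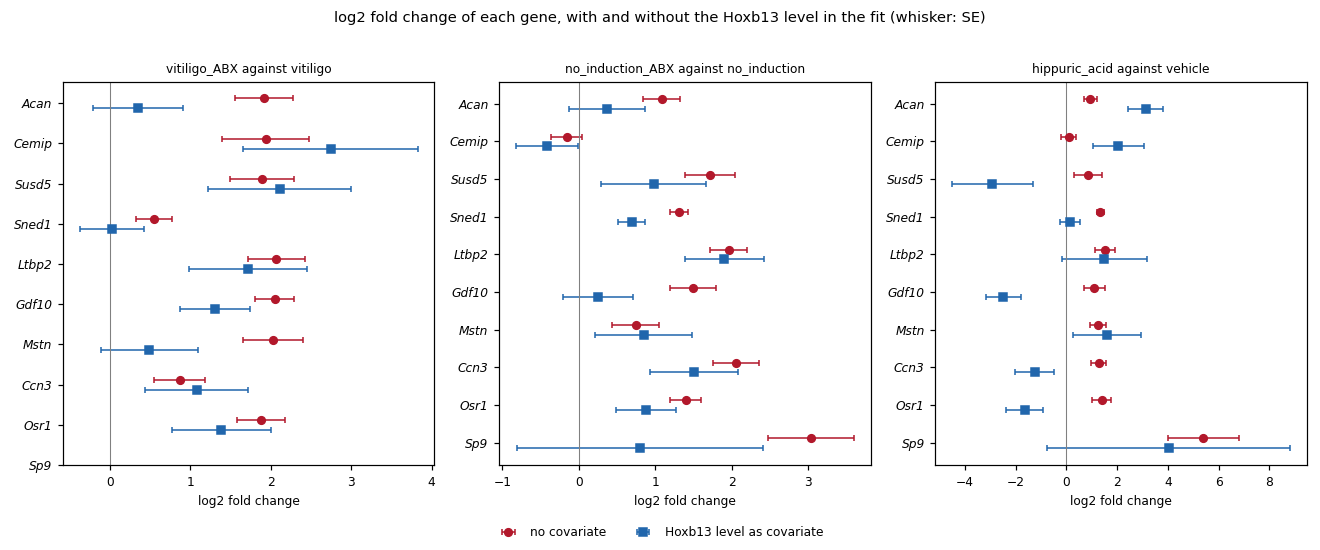
log2 fold change of each gene (x axis, SE as whisker) in 3 comparisons, from the fit with no covariate and from the fit with the Hoxb13 level as covariate. With the covariate in no_induction_ABX against no_induction, Ltbp2 is at 1.91 ± 0.51 and no longer called (edgeR adjusted p = 0.0735), and Gdf10 is at 0.25. That fit called 183 of all genes tested. Sp9 did not pass the count filter in vitiligo_ABX against vitiligo and has no point there.

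Comparisons between groups given neither ABX nor hippuric acid, and between both groups given ABX, share libraries with those that chose the genes, so they are descriptions. In vitiligo against no_induction the log2 fold changes ran from -0.78 ± 0.27 for Gdf10 and -0.68 ± 0.24 for Osr1 to 0.26 ± 0.15 for Sned1, over the 9 genes that passed the filter. Hoxb13 was also at a lower level in vitiligo (log2 fold change -1.02 ± 0.44). In vehicle against no_induction they ran from -0.49 ± 0.48 for Susd5 to 0.13 ± 0.33 for Acan. In the 2 groups given ABX, vitiligo_ABX against no_induction_ABX, Ccn3 had -0.95 ± 0.38, Mstn 1.06 ± 0.39 and Hoxb13 -0.23 ± 0.19.

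Within groups, where treatment is the same, the level of Hoxb13 varied between libraries and the slope of each gene on it could be tested. The libraries include those of the comparisons that chose the genes. Over all 38 libraries, 0 of the 10 genes had a slope that was called (edgeR, adjusted p under 0.05), and 0.0204% of all genes tested had a positive slope that was called. At an unadjusted p under 0.05, 5 of the 10 passed, against 6.96% of all genes. DESeq2 and limma-voom also called 0. The slope was positive for 9 of the 10 genes and for 46.4% of all genes.

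The slopes with the smallest unadjusted p were those of Acan (0.50 ± 0.15 log2 units per log2 unit of Hoxb13, edgeR adjusted p = 0.420), Gdf10 (0.49 ± 0.14, edgeR adjusted p = 0.276) and Sned1 (0.26 ± 0.08, edgeR adjusted p = 0.450). Sp9 had 1.29 ± 0.49, Mstn 0.38 ± 0.17 and Osr1 0.29 ± 0.14. Ltbp2 (0.10 ± 0.17), Ccn3 (0.08 ± 0.16) and Susd5 (0.16 ± 0.22) had slopes smaller than their errors, and Cemip had -0.23 ± 0.23.

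In the 18 libraries of vitiligo and no_induction, where Hoxb13 ran from 0.324 to 12.3 CPM, 0 of the 9 genes that could be fitted were called, without Sp9. The share of all genes called in that fit is not given here, so nothing is read from this count. There Acan had a slope of 0.51 ± 0.18, Gdf10 0.34 ± 0.15 and Mstn 0.33 ± 0.18, while Ltbp2 had -0.02 ± 0.13, Ccn3 -0.11 ± 0.16 and Osr1 0.06 ± 0.15.

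The 12 libraries given ABX took part in the comparisons that chose the genes, so their slopes are given as a description. In these libraries 4 of the 10 genes had a positive slope that was called, and 2.23% of all genes tested did. These were Osr1 (1.64 ± 0.16, edgeR adjusted p = 4.31e-04), Gdf10 (1.20 ± 0.26, edgeR adjusted p = 0.0363), Sned1 (0.96 ± 0.22, edgeR adjusted p = 0.0374) and Acan (1.23 ± 0.30, edgeR adjusted p = 0.0463). Susd5 (2.02 ± 0.55, edgeR adjusted p = 0.0635) and Ccn3 (1.37 ± 0.43, edgeR adjusted p = 0.105) were not called. Whether slopes differ between the libraries given ABX and the others was not tested.

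These slopes rested on libraries 001 to 003 of vitiligo_ABX, which had the lowest Hoxb13 of that group at 13.8 to 19.1 CPM. The same 3 libraries were the lowest 3 of the group for 8 of the 10 genes, against 1 of 10 in no_induction and 0 of 10 in both vitiligo and no_induction_ABX for the 3 libraries lowest in Hoxb13 there. The share of all genes with that order was not counted, so nothing is read from these counts. Without libraries 001 to 003 of vitiligo_ABX, 0 of the 10 genes and 0 of all genes tested were called, with Osr1 at 1.07 ± 0.48, Gdf10 at 1.07 ± 0.95, Acan at 0.51 ± 0.91 and Ltbp2 at -0.84 ± 1.67. Hoxb13 then ran only from 24.8 to 33.9 CPM. Without any 1 of the 12 libraries the count lay between 1 and 6.

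**Figure D3:**
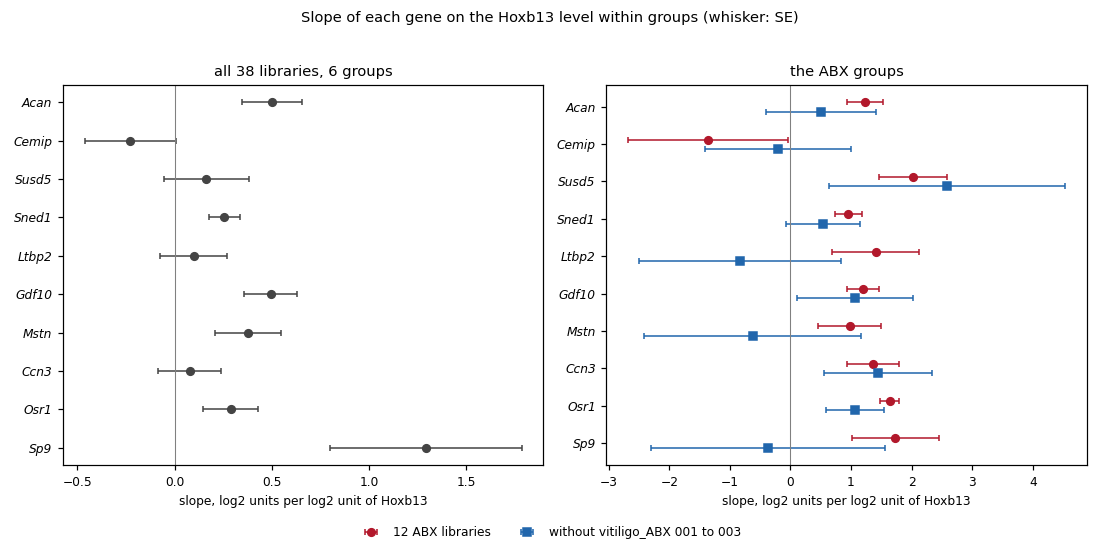
Slope of each gene on the Hoxb13 level within groups (log2 units of the gene per log2 unit of Hoxb13, SE as whisker), over all 38 libraries on the left and over the libraries given ABX on the right, with and without libraries 001 to 003 of vitiligo_ABX. In the 12 libraries given ABX, Osr1 has 1.64 ± 0.16, and without the 3 libraries it has 1.07 ± 0.48.

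The number of the 10 genes inside the range of vitiligo differed between vitiligo_ABX libraries. The libraries given ABX took part in the comparisons that chose the genes. Their counts are therefore a description, and nothing is read from them. In library 002, with Hoxb13 at 13.8 CPM, 6 of the 10 genes lay inside the range of vitiligo, and in library 003 at 15.8 CPM 5 did. In library 001 at 19.1 CPM 3 did, and in libraries 006, 004 and 005 at 27.5 to 33.9 CPM 1 or 2 did. Of all genes tested, 72.1%, 69.5%, 69.3%, 66%, 71.8% and 65.2% lay inside that range in libraries 002, 003, 001, 006, 004 and 005, in order of rising Hoxb13. In no_induction_ABX, from the lowest Hoxb13 to the highest, 3, 3, 0, 3, 3 and 2 genes lay inside the range of no_induction, and in hippuric_acid 3, 2, 3, 2 and 1 lay inside the range of vehicle. Of all genes tested, 57.8% to 73.7% did so in the no_induction_ABX libraries and 46.1% to 48.9% in the hippuric_acid libraries. The pair of libraries closest in Hoxb13 across the treatments was vitiligo_ABX 002 (13.8 CPM) and no_induction 022 (12.3 CPM), picked after their values were seen. Ltbp2 was at 5.74 CPM in vitiligo_ABX 002 and 7.45 CPM in no_induction 022, and Sp9 at 0.6248 CPM in vitiligo_ABX 002 and 0.908 CPM in no_induction 022. The other 8 genes were higher in vitiligo_ABX 002. Gdf10 was at 36.6 CPM in vitiligo_ABX 002 and 25.4 CPM in no_induction 022, and Ccn3 at 68.3 CPM in vitiligo_ABX 002 and 26.1 CPM in no_induction 022. These are 2 libraries that differ in induction as well as ABX.

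**Figure D4:**
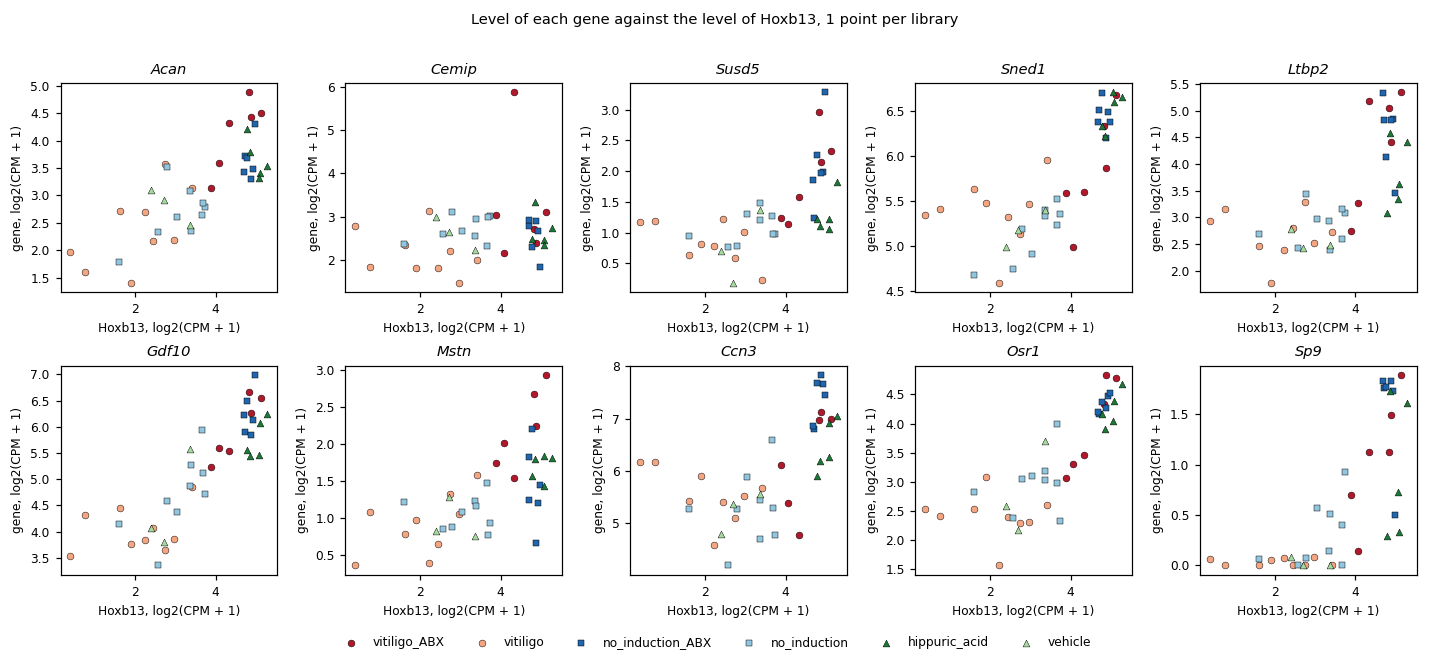
Level of each gene against the level of Hoxb13, both as log2(CPM + 1), with 1 point per library and 6 groups by colour and shape. The 17 libraries given ABX or hippuric acid lie to the right of the other 21 with no overlap, and the 3 vitiligo_ABX points furthest left among them are libraries 001 to 003.

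Fat moved with the same comparisons. The 21 adipocyte markers fell in vitiligo_ABX against vitiligo for 19 genes, in no_induction_ABX against no_induction for 16 and in hippuric_acid against vehicle for 14, and 0 rose in any of the 3. Of all genes tested, 1128 of 14014, 2201 of 13971 and 1168 of 14097 fell in these comparisons. The summed level of the markers ran from 5484 to 12314 CPM in vitiligo_ABX and from 16551 to 22558 CPM in vitiligo, from 8192 to 10098 CPM in no_induction_ABX and from 8783 to 13188 CPM in no_induction, and from 6111 to 9565 CPM in hippuric_acid and from 11032 to 15900 CPM in vehicle. With the adipocyte level in the fit, 2 of 7 genes were called higher in no_induction_ABX (Osr1 at 2.56 ± 0.44 and Susd5 at 3.07 ± 0.72), Cemip was called lower there (-1.29 ± 0.40, edgeR adjusted p = 0.0275), and 0 of 10 were called in hippuric_acid. Over all genes tested, that fit called 3302 in no_induction_ABX and only 2 in hippuric_acid. In that fit Ltbp2 had 0.86 ± 0.59 in no_induction_ABX and -0.24 ± 0.45 in hippuric_acid. In vitiligo_ABX that fit called 1 of all genes tested, and as a description Acan had -1.34 ± 0.80, Ltbp2 -1.21 ± 1.03, Sned1 -0.90 ± 0.72, Cemip -0.79 ± 2.12 and Ccn3 -0.07 ± 1.22 there, against positive values without the covariate. The adipocyte level in these fits was the mean log2(CPM + 1) of the markers. It did not overlap between the groups in any of the 3 comparisons. The fits thus set apart 2 measures that move together, and the part of fat in these results was not tested.

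Hair follicle markers were lower in 1 comparison. All 19 fell in no_induction_ABX against no_induction, where their summed level ran from 1786 to 10018 CPM in no_induction_ABX and from 7204 to 23827 CPM in no_induction. In vitiligo_ABX against vitiligo 2 of 19 rose, with a summed level of 14007 to 24050 CPM in vitiligo_ABX and 4822 to 17844 CPM in vitiligo, and in hippuric_acid against vehicle 0 of 19 were called. Among all genes tested, 2201 of 13971 fell in no_induction_ABX and 5.06% rose in vitiligo_ABX. The part of hair follicles in these results was not tested.

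Acan is best known from cartilage and Mstn from muscle. Col2a1, the defining collagen of cartilage, reached at most 1.13 CPM and Matn1, a cartilage matrix protein, at most 0.0580 CPM in any library. The summed level of 18 cartilage markers, which include genes that skin expresses, ran from 118 to 200.4 CPM in vitiligo_ABX and from 43.6 to 113 CPM in vitiligo, from 92.9 to 161 CPM in no_induction_ABX and from 54.98 to 129 CPM in no_induction, and from 104 to 162 CPM in hippuric_acid and from 68.0 to 107 CPM in vehicle. It moved in the direction of Acan, and its part in the result was not tested. The 14 skeletal muscle markers summed to 4.003 to 7.73 CPM in vitiligo_ABX and 6.63 to 23.8 CPM in vitiligo, to 4.70 to 7.25 CPM in no_induction_ABX and 3.79 to 13.4 CPM in no_induction, and to 5.67 to 12.1 CPM in hippuric_acid and 6.15 to 7.58 CPM in vehicle. In hippuric_acid, where Mstn was called, 1 of 6 muscle markers tested rose, the skeletal actin Acta1 (4.05 ± 0.58, edgeR adjusted p = 0.00185), at 1.55 to 4.45 CPM in hippuric_acid and 0.0489 to 0.315 CPM in vehicle. In vitiligo_ABX 1 of 6 fell, the myosin light chain Myl1 (-3.68 ± 0.45, edgeR adjusted p = 5.50e-05), and in no_induction_ABX 0 of 3 were called. The part of muscle in these results was not tested. Of 18 cartilage markers, 8 were tested in vitiligo_ABX against vitiligo and 3 rose (Col11a1 at 1.34 ± 0.26, Sox9 at 0.81 ± 0.21 and Comp at 1.07 ± 0.28), 7 in no_induction_ABX against no_induction with 2 risen, and 9 in hippuric_acid against vehicle with 1 risen (Hapln1 at 1.22 ± 0.37). Hapln1, the link protein that ties aggrecan to hyaluronan, rose in no_induction_ABX too (1.40 ± 0.27). The share of all genes tested that rose was 5.06% in vitiligo_ABX, 15.4% in no_induction_ABX and 5.48% in hippuric_acid.

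Among other genes of hyaluronan handling, 2 of 17 tested rose in vitiligo_ABX against vitiligo, 8 of 17 in no_induction_ABX against no_induction and 7 of 18 in hippuric_acid against vehicle, while 0, 1 and 0 fell. Over all genes tested, 5.06%, 15.4% and 5.48% rose, and 1128 of 14014, 2201 of 13971 and 1168 of 14097 fell. The hyaluronan synthase Has2 rose in no_induction_ABX (1.07 ± 0.13, edgeR adjusted p = 2.77e-05) and in hippuric_acid (1.64 ± 0.27, edgeR adjusted p = 0.00366), where Has1 rose as well (2.06 ± 0.42, edgeR adjusted p = 0.0102). Vcan, a proteoglycan that binds hyaluronan as aggrecan does, rose in hippuric_acid (0.94 ± 0.15, edgeR adjusted p = 0.00317). In vitiligo_ABX the risen genes were Cemip2, a relative of Cemip (0.61 ± 0.12), and Hapln3 (0.69 ± 0.22). The median log2 fold change of the list was 0.18 in vitiligo_ABX, 0.32 in no_induction_ABX and 0.52 in hippuric_acid, against 0.02, -0.00 and 0.02 over all genes tested.

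In the fibrillin and latent TGF-beta network around Ltbp2, 2 of 21 genes rose and 1 fell in vitiligo_ABX, 10 of 21 rose and 0 fell in no_induction_ABX, and 10 of 20 rose and 0 fell in hippuric_acid. Over all genes tested, 5.06%, 15.4% and 5.48% rose, and 1128 of 14014, 2201 of 13971 and 1168 of 14097 fell. Eln, the elastin gene, rose in vitiligo_ABX (1.10 ± 0.20, edgeR adjusted p = 0.00167) and in no_induction_ABX (1.02 ± 0.10, edgeR adjusted p = 5.99e-06). Loxl1, which cross-links elastin, rose in no_induction_ABX (0.87 ± 0.16) and in hippuric_acid (0.97 ± 0.16), and the microfibril gene Mfap4 rose in hippuric_acid (1.14 ± 0.17). Fbn2, a fibrillin, rose in vitiligo_ABX (1.16 ± 0.25), where Efemp1, a fibulin, fell (-1.19 ± 0.20). The list's median log2 fold change was 0.07 in vitiligo_ABX, 0.40 in no_induction_ABX and 0.54 in hippuric_acid.

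Among the TGF-beta superfamily ligands other than Gdf10 and Mstn, 3 of 14 tested rose in vitiligo_ABX, 2 rose and 2 fell in no_induction_ABX, and 3 rose in hippuric_acid, with medians of 0.24, 0.13 and 0.22 in these comparisons. Inhba, a subunit of activin, rose in vitiligo_ABX (1.11 ± 0.18), no_induction_ABX (1.07 ± 0.17) and hippuric_acid (1.05 ± 0.23). Of 13 receptors, 1 rose and 1 fell in vitiligo_ABX, 6 rose and 1 fell in no_induction_ABX and 4 rose in hippuric_acid. Acvr1c, a receptor that adipocytes express strongly, fell in vitiligo_ABX (-3.47 ± 0.38) and no_induction_ABX (-2.33 ± 0.41). Of 17 known SMAD targets, 3 rose in vitiligo_ABX, 5 rose and 1 fell in no_induction_ABX and 1 rose in hippuric_acid, with Ccn2 at 0.91 ± 0.28 in vitiligo_ABX and 1.56 ± 0.17 in no_induction_ABX. Over all genes tested, 5.06%, 15.4% and 5.48% rose in these comparisons, and 1128 of 14014, 2201 of 13971 and 1168 of 14097 fell. Counts near these shares are not read as a change of the list.

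In the CCN family besides Ccn3, 2 of 4 genes tested rose in vitiligo_ABX, 3 of 4 in no_induction_ABX and 1 of 4 in hippuric_acid, and 0 fell. Among 23 other matrix proteoglycans and glycoproteins, 3 rose and 0 fell in vitiligo_ABX, 9 rose and 1 fell in no_induction_ABX, and 8 rose and 1 fell in hippuric_acid. Postn, a matricellular protein, rose in no_induction_ABX (0.98 ± 0.23) and hippuric_acid (1.19 ± 0.23), and Tnc, also a matricellular protein, rose in vitiligo_ABX (1.09 ± 0.31). Of the relatives of Sp9 and Osr1, 0 of 7 were called in vitiligo_ABX, 2 of 7 rose and 1 fell in no_induction_ABX, and 0 of 8 were called in hippuric_acid. The 1 that fell was Sp6, a relative of Sp9 with a role in hair and teeth (-1.42 ± 0.30, edgeR adjusted p = 0.00252). General fibroblast markers gave 1 rise of 16 in vitiligo_ABX, 4 rises and 2 falls in no_induction_ABX, and 5 rises in hippuric_acid. Over all genes tested, 5.06%, 15.4% and 5.48% rose in these comparisons, and 1128 of 14014, 2201 of 13971 and 1168 of 14097 fell. Counts near these shares are not read as a change of the list.

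Markers of other cell types were also counted, and their part in these results was not tested. Of all genes tested, 5.06% rose and 1128 of 14014 fell in vitiligo_ABX. In no_induction_ABX 15.4% rose and 2201 of 13971 fell, and in hippuric_acid 5.48% rose and 1168 of 14097 fell. Counts of 1 or 2 genes of a list are not read as a change. Of 13 dermal papilla and sheath markers tested, 5 rose and 1 fell in vitiligo_ABX, 4 rose and 2 fell in no_induction_ABX and 2 rose in hippuric_acid. Their summed level ran from 524 to 1107 CPM in vitiligo_ABX and from 348 to 682 CPM in vitiligo. It ran from 567 to 1230 CPM in no_induction_ABX and from 395 to 1248 CPM in no_induction. In hippuric_acid it ran from 507 to 862 CPM, and in vehicle from 308 to 780 CPM. Of 10 melanocyte markers, 5 rose in vitiligo_ABX, 1 rose and 2 fell in no_induction_ABX and 4 rose in hippuric_acid. Their summed level was 220 to 328 CPM in vitiligo_ABX and 106 to 218 CPM in vitiligo. It was 114 to 268 CPM in no_induction_ABX and 178 to 227 CPM in no_induction, and 194 to 277 CPM in hippuric_acid and 157 to 183 CPM in vehicle. Of 8 Schwann cell markers, 2 rose in vitiligo_ABX, 5 in no_induction_ABX and 1 in hippuric_acid, with a summed level of 834 to 1925 CPM in no_induction_ABX and 605 to 1177 CPM in no_induction. Of 8 basal keratinocyte markers, 0 were called in vitiligo_ABX, 1 rose in no_induction_ABX and 4 fell in hippuric_acid. Their summed level ran from 4902 to 6245 CPM in hippuric_acid and from 7275 to 9441 CPM in vehicle. It overlapped between the groups of both ABX comparisons. Of 8 endothelial markers, 0 were called in vitiligo_ABX, 2 rose in no_induction_ABX and 1 rose in hippuric_acid. Of 6 tendon markers, 1 rose in vitiligo_ABX, while 1 rose and 1 fell in both no_induction_ABX and hippuric_acid.

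With group means removed, each gene was set over the 38 libraries against the 13376 genes whose mean reached 1 CPM, as a description in which points share library and depth. The most similar gene was Adamtsl3 for Sned1 (r = 0.85), Mgp for Gdf10 (r = 0.82), Stk32b for Osr1 (r = 0.83), Thbs4 for Ltbp2 (r = 0.81), Gli2 for Acan (r = 0.76), Slpi for Cemip (r = 0.78), Pcsk1 for Susd5 (r = 0.76), Klf9 for Mstn (r = 0.66) and Atp6v0d2 for Ccn3 (r = 0.87). For Sp9 it was Ltbp2 (r = 0.67), itself among the 10 genes.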

How the data were processed

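Tail skin RNA was enriched for messenger RNA with oligo(dT) beads, and libraries were made with a NEBNext Ultra kit for a NovaSeq instrument, per the labels' protocols. With no roles given, StringTie 1.3.1, DESeq2, HISAT2 and Bowtie2 2.2.8 stand in the submitters' processing notes. How reads were counted, on which genome build and whether by strand is not given in the sources used here, so reads of overlapping or antisense genes cannot be told apart. The authors deposited 1 table of estimated counts (expected counts) per gene. Values were rounded to whole numbers, since 3107 of 19219 genes (16.2%) held a value that was not whole. Rounding moved no total by more than 22.1 counts. Of 19220 rows, 1 with no symbol was left out. Every pair of libraries in a group differed beyond sampling noise (chi-square over its degrees of freedom 7.33 or more), and each library was treated as 1 replicate. That difference does not show that the libraries came from different mice.

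Groups were taken from the labelled treatment. Differences were tested two-sided with the quasi-likelihood test of edgeR 4.0.16 in R 4.3.3 (TMM factors, default count filter, robust fit) on the libraries compared, adjusted with Benjamini-Hochberg over all genes and called at an adjusted p under 0.05. SE were derived from the F statistic. Slopes were fitted with group and the group-centred log2(CPM + 1) of Hoxb13. Exon lengths came from GENCODE M21 and promoters from RefSeq, both matched by name or identifier and not tied to the authors' build. Alternatives were RLE factors, no filter, a filter of 1 CPM in every library of a group, DESeq2 1.42.0, limma 3.58.1 (voom with quality weights), all 38 libraries, the replicate number as a block, covariates, other Hox genes, and leaving out libraries. Leaving out libraries with intestinal transcripts or vitiligo_ABX 001 to 003, and the alternatives to the slope in the libraries given ABX, were chosen after seeing the data.

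The members and lists were chosen with earlier results of these data known. Besides the 10 genes and Hoxb13, at most 4 called genes per list and comparison, those with the smallest p, were eligible to be named, with the 3 most similar genes of each member. Intervals cover counting error only.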

Additional observations from a re-analysis of the deposited data

Results flagged for a closer look

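Of 55 sets of 4 to 10 libraries checked (each of the 10 genes and Hoxb13 in a group), 6 held a library far from the others of its group, where chance gives about 1 in 20. Library 006 of no_induction_ABX was such a library for 3 genes, with Acan at 18.7 CPM (others 8.82 to 12.2), Susd5 at 8.70 CPM (others 1.36 to 3.79) and Sp9 at 0.415 CPM (others 2.32 to 2.56). Cemip was at 57.8 CPM in vitiligo_ABX 001 (others 3.48 to 7.59). Susd5 was at 2.54 CPM in hippuric_acid 3 (others 1.07 to 1.33). Osr1 was at 14.99 CPM in no_induction 005 (others 4.06 to 8.12).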

How the results depend on the processing

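Of 1304 values of the genes under alternatives, 1133 kept direction and side of the threshold. The cause of the changes was not tested. For no_induction_ABX the count of 5 became 0 with the Hoxb13 level, 2 with the adipocyte level and 3 with the replicate block, and lay at 5 to 6 without any 1 library. Over all genes tested, the fits with the Hoxb13 level, the adipocyte level and the block called 183, 3302 and 1436. For vitiligo_ABX the count of 0 became 1 with no filter (Sp9), with DESeq2 or limma-voom (Ccn3), or with all 38 libraries (Sp9), 2 without vitiligo_ABX 001 to 003 (the libraries of the group lowest in Ccn3 and Sp9), and lay at 0 to 2 without any 1 library. For hippuric_acid the count of 7 became 3 with limma-voom, 4 with all 38 libraries and 1 with Hoxb13 in the fit. It became 0 with the adipocyte level, where 2 of all genes tested were called, and lay at 2 to 6 without any 1 library. The slope over 38 libraries had 0 called under each alternative run, except 4 with the 12 ABX libraries alone. The slope in the ABX libraries became 0 without vitiligo_ABX 001 to 003 and 2 with the adipocyte level, and lay at 1 to 6 without any 1 library. Same-numbered libraries correlated at -0.13 to 0.37 in their deviations from group means, which does not pair them, and the replicate block used the shared numbers only (vitiligo_ABX 0 called, hippuric_acid 5). Signs reversed as follows. With the adipocyte level, Sp9 was -0.058 in no_induction_ABX, Acan -1.34, Cemip -0.79, Ltbp2 -1.21, Sned1 -0.90 and Ccn3 -0.067 in vitiligo_ABX, and Cemip -1.04, Ltbp2 -0.24 and Susd5 -0.14 in hippuric_acid. With the Hoxb13 level, Gdf10 was -2.49, Susd5 -2.92, Osr1 -1.65 and Ccn3 -1.25 in hippuric_acid. Cemip in hippuric_acid was -0.11 with limma-voom, -0.10 without vehicle 001 (the library with Y-linked and intestinal transcripts), -0.16 without hippuric_acid 5 (its highest without 1 library was 0.33) and -0.12 with the replicate block, which gave it 0.021 in no_induction_ABX. Slopes in the ABX libraries without vitiligo_ABX 001 to 003 were Ltbp2 -0.84, Mstn -0.63 and Sp9 -0.37, and Cemip ran from -2.48 to 1.38e-04 without any 1 library, the last without vitiligo_ABX 001. Slopes over groups were Ccn3 -0.0016 without no_induction 005 (to 0.20 without any other 1 library) and -0.0061 without Y-linked libraries, Ltbp2 -0.018, Susd5 -0.17 and Ccn3 -0.11 in 18 libraries, Acan -0.056 and Ltbp2 -0.012 on Hoxa13 and Hoxd13, and Ltbp2 -0.12 with the adipocyte level. With 3 vehicle libraries, precision in hippuric_acid is limited by their number, and Sp9 by its counts.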
